A study of Homo sapiens with 14 samples.

Results

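Of the 18037 regions that GLTSCR1 occupied in vehicle-treated HS-SY-II cells, 2430 (13.5%) lay at an end of a protein-coding gene and overlapped a region of the SS18::SSX fusion in the same vehicle. They were chosen by 4 conditions on the DMSO lists: a GLTSCR1 region on chromosomes 1 to 22, X or Y, no wider than 5 kb, overlapping the 1 kb on either side of either end of a gene span, and sharing at least 1 bp with a DMSO fusion region. Members therefore carried both proteins in DMSO by construction, and the lists of treated cells hold what the choice did not use. These regions touched the ends of 2376 genes, 11.9% of the 20033 protein-coding genes in the annotation (GRCh38.p14). The other GLTSCR1 regions comprised 3837 gene-end regions without fusion, 8053 regions away from gene ends (distal) with fusion, 3490 distal regions without fusion and 227 regions wider than 5 kb.

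Sequencing of immunoprecipitated chromatin (ChIP-seq) was the assay, on the synovial sarcoma line HS-SY-II, in DMSO vehicle and in 100 nM of WA-68, a PROTAC that sends BRD9 to degradation. The GLTSCR1 antibody was used in DMSO and at 12, 24, 48 and 96 h of WA-68, and an anti-HA antibody against a tagged SS18::SSX fusion in DMSO and at 12, 24 and 48 h. The labels give the genotype of every sample as WT and do not say how the HA tag was introduced, and 5 libraries of input chromatin were left unused. Each antibody and time had 1 library and every time was set against the same DMSO library, whose duration is not given, so no test between conditions was possible, and culture time and WA-68 exposure cannot be told apart.

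GLTSCR1, also called BICRA, and the bromodomain protein BRD9 define the GBAF (ncBAF) form of the BAF chromatin remodelling complexes, which lacks several subunits of the canonical form. SS18 is a subunit of both canonical BAF and GBAF, and the fusion of SS18 to an SSX protein is the defining oncoprotein of synovial sarcoma. The fusion is known for binding at CpG-rich promoters that Polycomb complexes also occupy, through the affinity of its SSX tail for ubiquitinated histone H2A. Gene ends include transcription start sites, where promoters are bound by factors such as the SP and KLF zinc fingers, which recognise the GC box, and ETS proteins.

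The promoter letters beneath a few of these regions show the range that the set covers. Each line runs 5′ to 3′ in the direction of the gene, from 250 bases before to 50 after its listed start (RefSeq, GRCh38.p14), with capitals for the GC box GGGCGG and the ETS core CCGGAAG on either strand. The 5 promoters were chosen after their values were seen, as examples of the 4 joint call patterns named here. BRD2 (chr6:32968344-32968643 on the + strand) and HHIP (chr4:144645906-144646205 on the + strand) were called by both antibodies in every list. GPATCH2 (chr1:217631041-217631340 on the - strand) kept GLTSCR1 calls without fusion calls, LMO1 (chr11:8268738-8269037 on the - strand) kept fusion calls without GLTSCR1 calls, and ATP13A1 (chr19:19663627-19663926 on the - strand) was called by neither antibody after DMSO.
BRD2: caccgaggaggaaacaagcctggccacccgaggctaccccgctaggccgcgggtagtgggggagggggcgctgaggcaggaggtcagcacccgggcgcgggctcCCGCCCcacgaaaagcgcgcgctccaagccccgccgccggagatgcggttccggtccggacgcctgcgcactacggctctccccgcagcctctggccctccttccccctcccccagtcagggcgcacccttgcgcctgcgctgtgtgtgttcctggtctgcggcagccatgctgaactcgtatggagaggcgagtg
HHIP: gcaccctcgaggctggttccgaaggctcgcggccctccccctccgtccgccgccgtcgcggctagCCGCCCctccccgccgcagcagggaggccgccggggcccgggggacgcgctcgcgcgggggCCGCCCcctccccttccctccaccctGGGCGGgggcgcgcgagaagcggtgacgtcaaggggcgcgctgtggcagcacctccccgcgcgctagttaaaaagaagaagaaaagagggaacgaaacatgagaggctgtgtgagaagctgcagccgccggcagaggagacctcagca
GPATCH2: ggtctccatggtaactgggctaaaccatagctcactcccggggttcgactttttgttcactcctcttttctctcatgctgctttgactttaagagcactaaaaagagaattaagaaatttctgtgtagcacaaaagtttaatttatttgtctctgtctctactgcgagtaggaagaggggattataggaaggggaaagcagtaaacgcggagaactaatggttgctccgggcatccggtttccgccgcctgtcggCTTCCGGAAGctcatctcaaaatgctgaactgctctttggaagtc
LMO1: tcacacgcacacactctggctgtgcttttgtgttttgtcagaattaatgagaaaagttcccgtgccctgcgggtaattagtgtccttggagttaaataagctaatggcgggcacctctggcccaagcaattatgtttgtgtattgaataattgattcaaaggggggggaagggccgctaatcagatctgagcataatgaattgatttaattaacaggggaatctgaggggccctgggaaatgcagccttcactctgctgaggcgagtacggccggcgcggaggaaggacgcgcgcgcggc
ATP13A1: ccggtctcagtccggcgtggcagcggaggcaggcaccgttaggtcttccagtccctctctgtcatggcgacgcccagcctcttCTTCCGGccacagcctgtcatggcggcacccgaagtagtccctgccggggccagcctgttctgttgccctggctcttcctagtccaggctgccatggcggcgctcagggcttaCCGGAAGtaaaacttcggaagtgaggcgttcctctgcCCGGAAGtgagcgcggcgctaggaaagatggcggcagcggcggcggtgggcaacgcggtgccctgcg
The HHIP promoter held 3 GC boxes at 72.7% G and C, and the BRD2 promoter 1 at 71.7%. GPATCH2, at 46.0% G and C, held a palindrome that counts as an ETS core on both strands, and ATP13A1 held 3 ETS cores. LMO1 held neither letter string.

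In DMSO the regions were wider and higher, by their medians, than the other GLTSCR1 regions of up to 5 kb, which is a description of the chosen set and not a result. Their median width was 862 bp (range 272 to 4986 bp), against 524 bp for gene-end regions without fusion and 612 bp for distal regions with fusion. The authors' summit fold, the enrichment of the strongest summit over local background within its own list, had a median of 5.90 for GLTSCR1 (2.48 to 41.3) and 4.70 for the fusion (2.15 to 19.8). Across the 2430 regions the DMSO folds of the 2 antibodies were almost unrelated, with a Spearman coefficient of 0.0101. That coefficient runs over regions that share 2 libraries and is given without a test. The strongest summits of the pair of antibodies lay a median of 316 bp apart, and 1044 of the regions (43.0%) had them within 250 bp.

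Most of these regions were at promoters. A listed transcription start lay within 1 kb of 1677 regions (69.0%), against 80.1% of gene-end regions without fusion. Another 222 regions were at the end of a gene whose start is listed elsewhere, and for 531 no start is listed, since 79.1% of the protein-coding genes have a promoter entry. Among the 1677, 695 strongest summits (41.4%) were within 300 bp of the start, 871 were downstream of it and 804 upstream. The set was not made of independent items: 372 regions shared their DMSO fusion region with another member, with up to 6 in 1 fusion region, and 367 genes had more than 1 region. EVX2, GAS1, GBX2 and INSM1 had 4 each. Chromosome 19 gave the set 25.3% of its GLTSCR1 regions and chromosome 3 gave 7.40%.

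At 12 h of WA-68 the GLTSCR1 list called 1559 of the 2430 regions, 64.2% (95% interval 62.2 to 66.1), against 55.8% of all DMSO GLTSCR1 regions. A region counts as called when a peak of the later list overlaps it by at least 1 bp, and the exact Clopper-Pearson intervals cover counting error only. The 24 h list called 1120 (46.1%, 44.1 to 48.1), against 47.6% of all regions, and the 48 h list 1083 (44.6%, 42.6 to 46.6), against 43.2%. The 96 h list called 1258 (51.8%, 49.8 to 53.8), against 48.6%. At 24 and 48 h the set was thus close to the average DMSO region although its DMSO folds were higher. Absence from a list means only that no peak passed the caller's cut-off there, and the protein may still have been present.

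The fusion lists of 12, 24 and 48 h called 1498 regions (61.6%, 59.7 to 63.6), 1417 (58.3%, 56.3 to 60.3) and 1576 (64.9%, 62.9 to 66.8). Of all DMSO GLTSCR1 regions, with or without fusion in DMSO, the same 3 lists called 54.4%, 50.2% and 54%. The fusion shares stayed between 58.3 and 64.9% while the GLTSCR1 share dropped between 12 and 24 h. The fusion lists held 28619, 24846 and 26405 regions at 12, 24 and 48 h, and a longer list can overlap more regions. With lists of equal length the fusion shares were 54.9, 58.3 and 61.8%, lowest at 12 h. GLTSCR1 lists of equal length gave 58.1, 41.9, 44.6 and 47.1% at 12, 24, 48 and 96 h. All members had fusion in DMSO by the choice, so the shares over all regions are a loose reference. Distal regions that also had fusion in DMSO were called by the fusion list more often, in 88.1%, 84.0% and 86.6% at the 3 times.

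**Figure D1:**
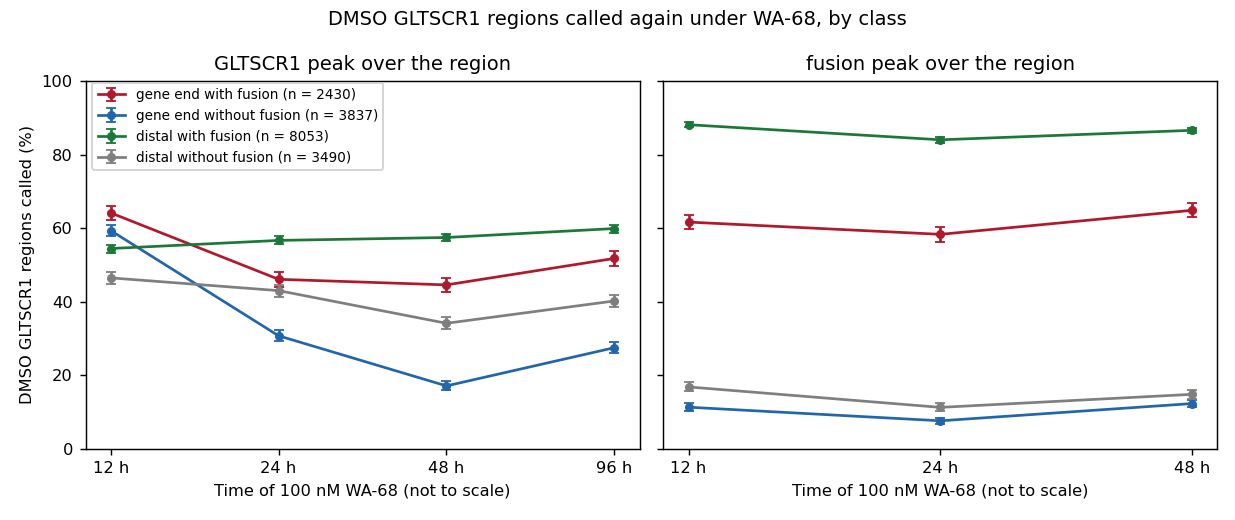
Share of DMSO GLTSCR1 regions overlapped by a later GLTSCR1 peak (left, 12 to 96 h of WA-68) or a later fusion peak (right, 12 to 48 h), in %, for 4 classes of region; bars are exact 95% intervals of counting error. GLTSCR1 calls at gene ends with fusion lie at 64.2, 46.1, 44.6 and 51.8% over the times, between distal regions with fusion and gene-end regions without fusion from 24 h on.

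The class was set against its 2 nearest neighbours at like DMSO fold, by averaging the difference over deciles of the GLTSCR1 fold. Relative to gene-end regions without fusion, GLTSCR1 calls at gene ends with fusion differed by -2.59, 6.03, 19.9 and 15.7 percentage points at 12, 24, 48 and 96 h. The 95% intervals of counting error ran -4.81 to -0.37, 3.63 to 8.44, 17.5 to 22.3 and 13.2 to 18.1 points. The unadjusted shares were 44.6% for gene ends with fusion and 17.1% for gene ends without at 48 h. When region width was matched as well, the 24 h difference was 0.756 points (-1.69 to 3.20), and with summits required within 250 bp it was -0.305 points (-2.70 to 2.09). The 12, 48 and 96 h differences were -8.26, 15.6 and 10.4 points with width matched and -9.84, 8.40 and 4.51 points with summits.

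Relative to distal regions with fusion, GLTSCR1 calls at gene ends with fusion differed by -0.0024 points at 12 h (-1.96 to 1.95). From 24 h on they differed by -19.4 (-21.4 to -17.4), -21.6 (-23.7 to -19.6) and -16.4 points (-18.5 to -14.4). The fusion calls differed by -24.5 (-26.6 to -22.3), -23.7 (-25.9 to -21.5) and -19.9 points (-22.0 to -17.8) at 12, 24 and 48 h. These fusion differences were matched on GLTSCR1 fold, and not on the fold or width of the DMSO fusion region. With summits within 250 bp the fusion differences were -4.28, -7.51 and -4.38 points at 12, 24 and 48 h. At like DMSO height, then, the GLTSCR1 difference lay within counting error at 12 h and outside it from 24 h on.

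Each region is itself a DMSO GLTSCR1 peak, so its cover by later peaks describes their extent and is no comparison with DMSO. Where a region was called, the later GLTSCR1 peaks covered a median of 64.6, 51.6, 45.8 and 51.9% of it over the 4 times, and fusion peaks 73.9, 72.0 and 74.0% over their 3. Some overlapping GLTSCR1 peaks did not reach the gene-end window itself, in 74, 105, 90 and 101 of the called regions at 12, 24, 48 and 96 h.

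The 2 antibodies could be read together at 12, 24 and 48 h. These joint shares were counted over the members alone. With no reference from other DMSO regions, they are not read as particular to gene ends with fusion. In that order of times both were called over 971 (40.0%), 737 (30.3%) and 863 regions (35.5%). GLTSCR1 alone was called over 24.2, 15.8 and 9.05% and fusion alone over 21.7, 28.0 and 29.3%. Neither antibody was called over 14.2, 25.9 and 26.1%. At 12 h the fusion was called over 62.3% of regions with a GLTSCR1 call and 60.5% of those without. At 48 h the corresponding shares were 79.7% (77.2 to 82.0) with GLTSCR1 and 52.9% (50.2 to 55.6) without. The share with both calls was lower at 48 h than at 12 h while these conditional shares lay further apart, and the part of region width in that gap was not tested.

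Over the whole course GLTSCR1 was called at every later time in 706 regions (29.1%), against 26.7% of all DMSO regions, and at none in 562 (23.1%), against 26%. The fusion was called at every later time in 1094 regions (45.0%), against 42.2% of all, and at none in 515 (21.2%), against 35.5%. Every later list of both antibodies called 415 regions (17.1%, against 16.7% of all), and no later list called 157 (6.46%, against 12.8%). Fusion in every later list with GLTSCR1 in none was seen in 210 regions (8.64%, against 7.01%). The opposite pattern, GLTSCR1 in every later list with fusion in none, was seen in 74 (3.05%, against 4.47%).

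**Figure D2:**
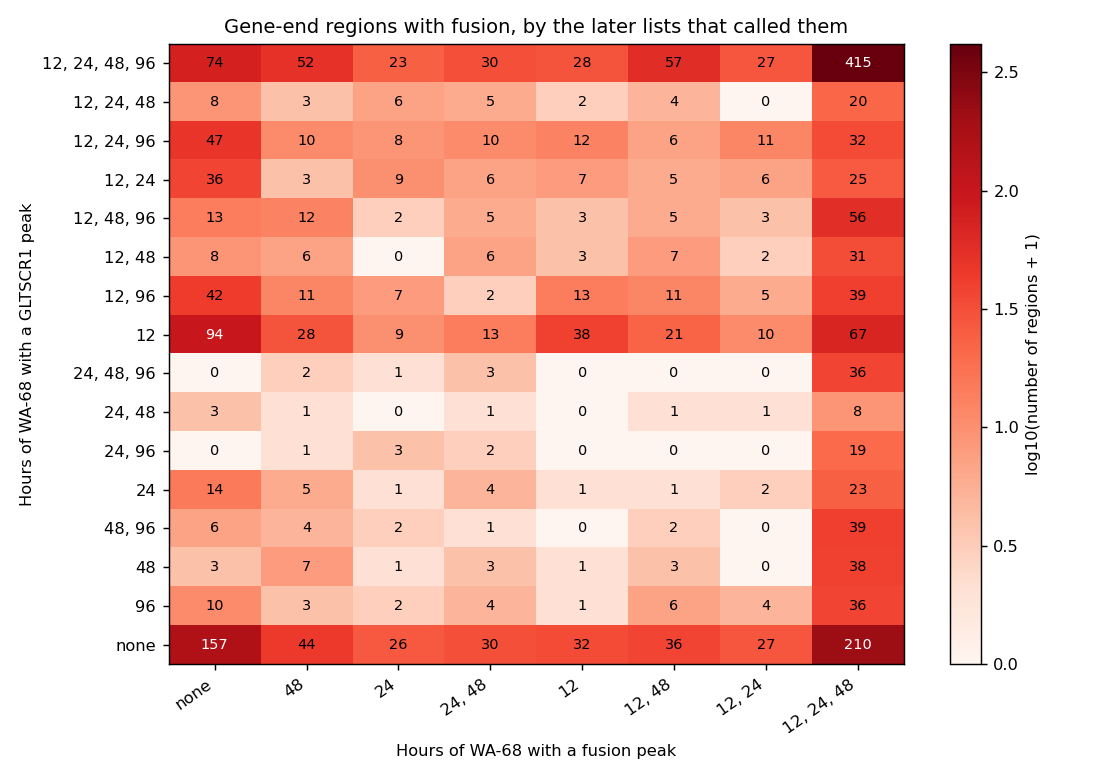
Number of the 2430 gene-end regions with fusion for each combination of later GLTSCR1 calls (rows, hours of WA-68) and later fusion calls (columns, hours); colour is log10 of the number plus 1. The corners hold 415 regions called in all lists, 210 with fusion alone throughout, 157 with neither and 74 with GLTSCR1 alone throughout.

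Regions called throughout included the highest GLTSCR1 summits of the set. CRIP2, which encodes a LIM-domain protein, had the top fold of 41.3 in DMSO, with 9.83, 19.5, 27.6 and 36.8 at 12, 24, 48 and 96 h, and fusion folds of 5.68 in DMSO and 8.25, 8.77 and 9.21 at 12, 24 and 48 h. BRD2, a BET-family reader of acetylated histones, had GLTSCR1 folds of 38.2, 28.2, 23.1, 12.9 and 24.9 over the same series and fusion folds of 5.61, 3.42, 4.23 and 3.86. Folds of different lists rest on different depths and backgrounds and show no change in binding; the calls show that both regions passed the threshold in all 9 lists. MYADM (DMSO GLTSCR1 fold 35.8), TAGLN2, an actin-binding protein (33.2), DRC8, a ciliary dynein regulator (29.0), RFX3, a transcription factor of ciliary genes (24.9), and NFATC2, a calcium-responsive transcription factor (24.6), followed.

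HHIP, which encodes a cell-surface antagonist that binds Hedgehog ligands, combined a high GLTSCR1 summit with a high and wide fusion region. Its GLTSCR1 region of 4938 bp had folds of 24.1 in DMSO and 11.3, 17.6, 5.05 and 9.90 at 12, 24, 48 and 96 h. The fusion region of 9093 bp over it had folds of 13.5 in DMSO and 10.2, 6.24 and 9.05 at 12, 24 and 48 h. The strongest GLTSCR1 summit lay 2090 bp downstream of the start whose promoter is printed above. In BRD2 the strongest summit was nearest to another listed start of the gene, downstream of the printed one, from which it lay at -823 bp (minus is upstream), and it was within 5 bp of the strongest fusion summit.

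Regions with GLTSCR1 called throughout and the fusion in DMSO alone also reached high GLTSCR1 summits. YLPM1 had GLTSCR1 folds of 23.2 in DMSO and 11.6, 6.96, 15.5 and 10.6 at 12, 24, 48 and 96 h, and its only fusion peak, in DMSO, had a fold of 4.44. The shared promoter region of GPATCH2 and SPATA17 had GLTSCR1 folds of 20.2, 18.6, 11.3, 23.3 and 11.5 over the series, beside a DMSO fusion fold of 3.89. PDE8B/ZBED3 (20.1 in DMSO; PDE8B hydrolyses cyclic AMP), GNL3L, a nucleolar GTPase (18.7), ANP32E, a chaperone that removes histone H2A.Z (16.9), and ZNF747 (16.8) completed the 6 highest. The DMSO fusion regions over these 6 were 310 to 596 bp wide, below the median of 782 bp for the whole set.

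The reverse pattern, fusion called at every time and GLTSCR1 in DMSO alone, had lower GLTSCR1 summits. SLC2A4RG, a zinc-finger regulator of a glucose transporter gene, showed GLTSCR1 at a fold of 9.10 in DMSO, with fusion folds of 8.07 in DMSO and 3.10, 4.22 and 6.12 at 12, 24 and 48 h. MN1, a transcriptional coregulator, showed GLTSCR1 at 7.53 in DMSO, with fusion folds of 7.02, 8.09, 8.78 and 8.45. TEAD4, the DNA-binding partner of YAP in the Hippo pathway (GLTSCR1 fold 7.74), DNAAF5, a factor for assembly of ciliary dynein (7.59), TMEM200B (7.55) and the C1QTNF5/MFRP end (7.41) were the others named. LMO1, a LIM-only transcriptional cofactor printed above, showed GLTSCR1 at 6.24 in DMSO, with fusion folds of 8.49, 4.20, 5.45 and 4.70.

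Among the 157 regions called in no later list, the highest DMSO GLTSCR1 folds were at ATP13A1, a P-type ATPase of the endoplasmic reticulum (10.6), TAX1BP1, an autophagy receptor (10.3), OSBPL6, an oxysterol-binding protein (9.23), FOXK2, a forkhead factor (9.0), MYO5A, a vesicle motor (8.48), and IER3, an immediate early gene (8.42). The fusion folds there were between 4.00 and 5.07, and each region had a single summit. The call belongs to the region and not to the gene: a second region at IER3, which also touches FLOT1, kept its GLTSCR1 call at 12 and 96 h and its fusion call at every time.

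Some regions were called by GLTSCR1 at particular times. A call at 12 h and at no later time was seen in 280 regions (11.5%), against 9.44% of all DMSO regions and 22.8% of gene-end regions without fusion. The highest of these were TENT4A, a non-canonical poly(A) polymerase, with folds of 11.0 in DMSO and 5.26 at 12 h, and KMT2A, a histone H3 lysine methyltransferase, with 10.9 in DMSO and 4.17 at 12 h. KMT2A kept a fusion peak at every time, with folds of 5.90, 6.69, 4.00 and 8.36, whereas TENT4A had a fusion peak in DMSO alone. KIRREL1 (GLTSCR1 fold 10.0 in DMSO), SUMO3, a ubiquitin-like modifier (9.83), CCND1, which encodes cyclin D1 (9.41), and USP28, a deubiquitinase (9.36), had the same GLTSCR1 pattern.

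A call missing at 24 and 48 h and present at 96 h was seen in 196 regions (8.07%), against 7.27% of all and 8.08% of gene-end regions without fusion, so it was not particular to gene ends with fusion. RPL23A, a ribosomal protein gene, had GLTSCR1 folds of 16.1 in DMSO, 6.39 at 12 h and 4.10 at 96 h, and ENO1, the glycolytic enolase, had 12.5, 10.7 and 5.20 at those times. REV3L, the catalytic subunit of translesion polymerase zeta (11.0 in DMSO), PCIF1, which methylates the cap-adjacent adenosine of messenger RNA (10.7), GCHFR (10.3) and ACAD9, a mitochondrial dehydrogenase-family protein (9.68), followed. The rarer pattern of a call missing at 12 h and present from 24 h on, which was added after the values were seen, held 42 regions (1.73%, against 2.91% of all), led by B3GLCT with folds of 12.0 in DMSO and 6.67, 5.86 and 5.68 at 24, 48 and 96 h.

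**Figure D3:**
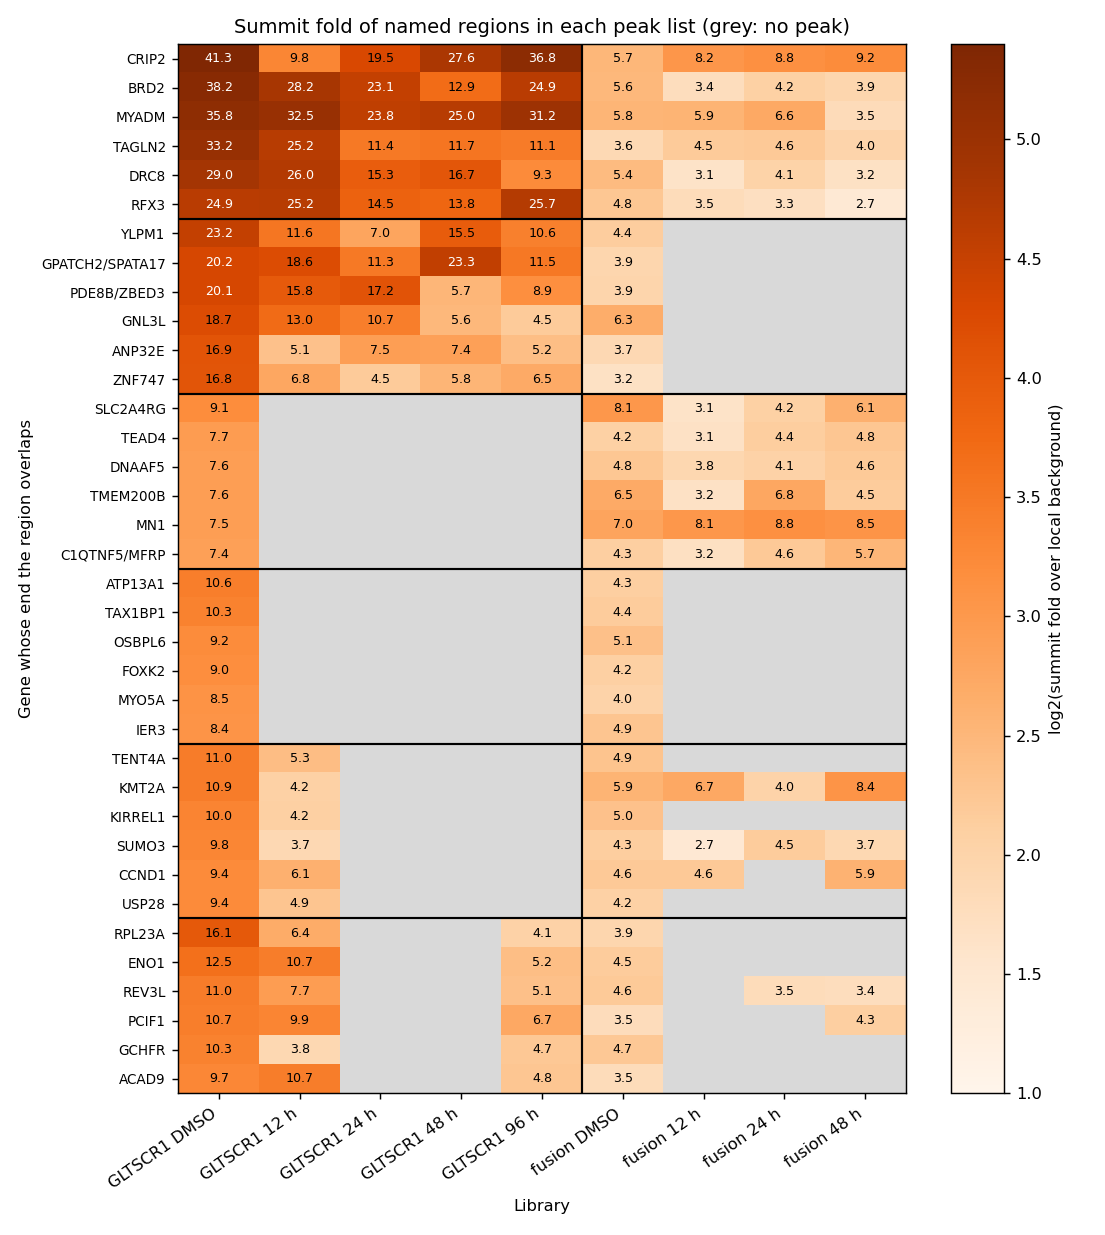
Summit fold over local background (number in each cell; colour is its log2) in the 9 lists for the highest regions of 6 call patterns, separated by horizontal lines; grey is no overlapping peak and the vertical line divides GLTSCR1 from fusion lists. YLPM1 to ZNF747 have no later fusion peak and SLC2A4RG to C1QTNF5/MFRP no later GLTSCR1 peak; folds compare regions within a column, not columns.

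GLTSCR1 was called again more often where its DMSO summit was higher, and the fusion was not. In the lowest quintile of DMSO GLTSCR1 fold (2.48 to 4.35) GLTSCR1 was called over 32.9% at 12 h and 22.6% at 48 h, and in the highest quintile (8.64 to 41.3) over 96.5% at 12 h and 81.7% at 48 h. The fusion was called over 65.3% of the lowest quintile and 65.2% of the highest at 48 h. Region width went with the calls of both antibodies, and a wider region is also more easily overlapped. In the narrowest quintile (272 to 463 bp) GLTSCR1 was called over 16.9% and the fusion over 56.0% at 48 h, and in the widest (1823 to 4986 bp) over 88.3% and 85.4%.

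The width of the DMSO fusion region beneath a member divided the later GLTSCR1 calls in opposite ways early and late. Over the narrowest quintile of fusion regions (290 to 411 bp, 486 members), the GLTSCR1 lists of 12, 24, 48 and 96 h called 66.0, 39.5, 31.9 and 41.2%. Over the widest quintile (2523 to 42368 bp, 486 members) they called 55.6, 52.5, 64.0 and 64.4%. The widest quintile was thus lower than the narrowest at 12 h and higher at 24, 48 and 96 h, and its 48 h share did not fall below its 12 h share. The later fusion lists called 31.3%, 28.0% and 38.1% of the narrowest quintile at 12, 24 and 48 h and 98.4%, 97.1% and 98.1% of the widest, where a wide region is again more easily overlapped.

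The contrast was read again at like GLTSCR1 height. In the lowest quartile of GLTSCR1 fold (2.48 to 4.58), GLTSCR1 was called at 48 h over 41.0% of members with the widest fusion regions (33.4 to 48.9) and 10.1% of those with the narrowest (5.32 to 17.0). In the highest quartile (7.97 to 41.3) the 48 h shares were 97.9% with the widest and 60.7% with the narrowest. At 12 h the shares with the widest were 28.3, 47.1, 71.1 and 92.6%, from the lowest quartile up. With the narrowest they were 41.2, 55.2, 75.4 and 93.8%. The widest were thus lower at 12 h in all 4 quartiles. The intervals of counting error overlapped in each, which does not show that the shares were equal. All 4 quartiles had the higher share with the widest fusion regions at 24, 48 and 96 h. In tertiles of member width the same held at 48 and 96 h, and at 24 h the middle tertile went the other way, with 35% for the widest and 38.9% for the narrowest. At 12 h these tertiles, from the lowest up, had 22.64, 45.30 and 86.19% for the widest. The narrowest had 43.96, 69.19 and 94.96% there. The 12 h intervals lay apart in the lowest tertile, at 16.4 to 29.9% for the widest and 36.6 to 51.5% for the narrowest. They lay apart in the middle tertile too, at 36.1 to 54.8% and 62.0 to 75.8%, and overlapped in the highest. With summits required within 250 bp, an alternative added after the data were seen, GLTSCR1 was called at 48 h over 35.4% of the widest and 20% of the narrowest quintile, and at 12 h over 27.6% and 45.1%. A listed start was near 53.9% of the widest and 78.6% of the narrowest, and its part in the difference was not tested.

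**Figure D4:**
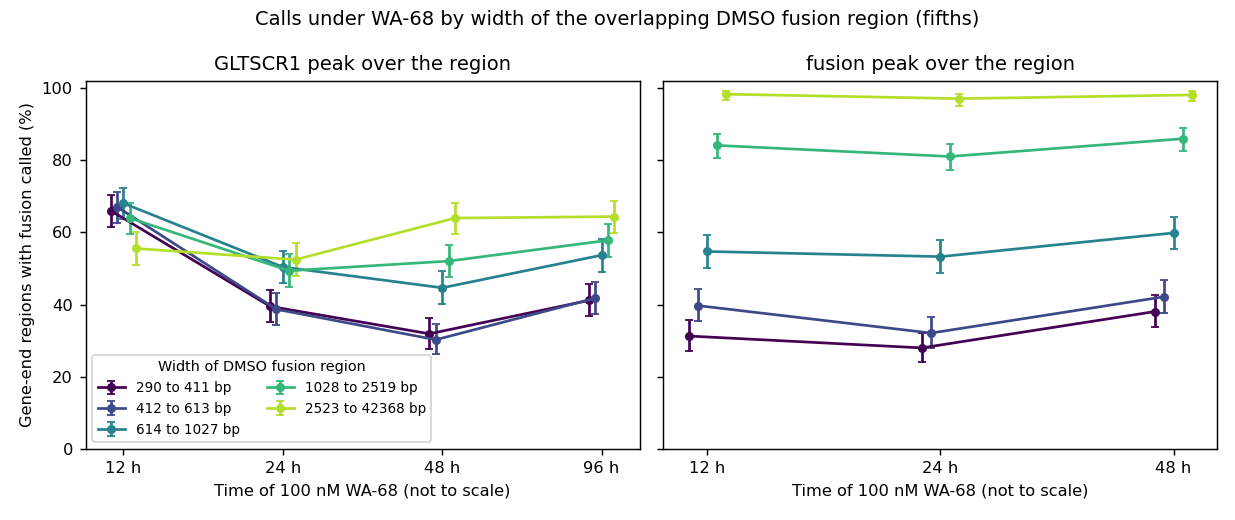
Share of gene-end regions with fusion called by later GLTSCR1 peaks (left) and fusion peaks (right), in %, over hours of WA-68, for quintiles of the width of the DMSO fusion region (486 regions each); bars are exact 95% intervals of counting error. The GLTSCR1 curves cross: the widest quintile is lowest at 12 h (55.6%) and highest at 48 h (64.0%), where the narrowest is at 31.9%.

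Split by kind of gene end, the 1677 regions near a listed start had GLTSCR1 calls in 66.5, 45.9, 42.6 and 50.5% at 12, 24, 48 and 96 h. The 222 regions at gene ends whose start is listed elsewhere had 53.2, 50, 55 and 58.6% at those times. Fusion calls at 12, 24 and 48 h stood at 57.5%, 52.8% and 60.2% near starts and at 79.3%, 75.7% and 81.5% at the other ends. The 531 regions with no listed start had GLTSCR1 calls in 61.2, 45, 46.3 and 52.9% and fusion calls in 67.2, 68.4 and 72.7%. GLTSCR1 shares were lower at 48 h than at 12 h near listed starts and where no start is listed. For the 222 other ends the intervals at 12 h (46.4 to 59.9%) and 48 h (48.2 to 61.6%) overlapped. The same regions were scored at both times, so these intervals do not measure the change. The difference between the kinds of end was not tested.

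Fusion regions with the highest DMSO summits were wide and gave several members each. ALDH1A2, the retinaldehyde dehydrogenase that makes retinoic acid, had a fusion fold of 19.8 in DMSO and 8.25, 8.06 and 11.4 at 12, 24 and 48 h over a region of 24903 bp. The 2 members inside it had GLTSCR1 folds of 4.25 and 6.47 in DMSO. HMGCLL1, a lyase-family gene, had fusion folds of 18.4, 17.6, 14.1 and 18.6 over 13715 bp. The INPP5A/NKX6-2 end lay in the widest fusion region, of 42368 bp, with fusion folds of 18.4, 22.7, 22.8 and 24.8. Of its members 1 was called by GLTSCR1 at every time and another, of 307 bp, in DMSO alone.

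The promoters under these regions held more G, C and CpG than promoters at large, and a CpG ratio close to that of gene ends without fusion. The 1691 promoter windows of 300 bases at members had a median of 68.0% G and C, against 62.3% for all 22198 windows of protein-coding genes. The 2671 windows at gene-end regions without fusion had 65.7%. The observed over expected CpG ratio was 0.861 at members, against 0.737 for all and 0.874 without fusion. The GC box GGGCGG was present in 74.9% of member windows, against 56.3% of all and 72.1% of those without fusion. The AP-1 letters TGANTCA were in 3.61%, against 6.15% of all and 4.01% without fusion, and the TATA letters TATAAA in 6.98%, against 9.47% of all and 4.27% without fusion. Of the other letters searched, CCAAT was in 29.9% (all 34.7%, without fusion 33.4%) and CACGTG in 12.3% (all 8.34%, without fusion 11.4%). TGACGTCA was in 3.08% (all 2.26%, without fusion 3.48%). All were searched on both strands; matches of a string may overlap one another, as in the GPATCH2 palindrome.

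The ETS core CCGGAAG was in 14.9% of member windows, against 12.8% of all windows and 22.6% of windows at gene ends without fusion. Within the members it went with the later calls. It was in 28.4% of 74 windows (58 genes, 18.5 to 40.1) at regions that kept GLTSCR1 and lost fusion calls. At regions called by neither it was in 25% of 112 windows (93 genes, 17.3 to 34.1). It was in 6.25% of 64 windows (58 genes, 1.73 to 15.2) at regions that kept fusion alone. At regions called in every list it was in 7.38% of 298 windows (224 genes, 4.68 to 11.0). Several windows can belong to the same gene, so they are not independent items. By fusion width it was in 5.61% of 196 windows under the widest quintile (2.83 to 9.82) and 21.5% of 428 under the narrowest (17.7 to 25.7). Median G and C stood at 58.8% where GLTSCR1 alone was kept and 72.0% where fusion alone was kept, so base composition also differed between those sets. It stood at 68.5% at regions called by neither and 68.7% at regions called in every list. By fusion width it was 68.3% under the widest quintile and 66.7% under the narrowest. The part of base composition in the ETS shares was not tested. GPATCH2 and ATP13A1 above show the core in the first 2 of these sets and LMO1 a promoter without it. These are picked examples and do not stand for their sets. The YLPM1 promoter, of the same call pattern as GPATCH2, had 0 ETS cores. LMO1 had 50.7% G and C and 0 GC boxes, whereas 78.1% of windows in its set held a GC box. A letter match is a description of the sequence and not a bound site.

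Fixed gene lists showed which functions the regions touched, described by counts beside the whole set and with no test. For every list, the whole set is the reference. It had GLTSCR1 calls in 64.2, 46.1, 44.6 and 51.8% at 12, 24, 48 and 96 h. Its fusion calls stood at 61.6, 58.3 and 64.9% at 12, 24 and 48 h. Homeobox genes outside the HOX clusters, which encode developmental transcription factors, had 47 regions at 26 of 47 genes. The fusion was called over 46, 43 and 45 of them (97.9, 91.5 and 95.7%) at 12, 24 and 48 h. GLTSCR1 was called over 33, 31, 33 and 33 (70.2, 66.0, 70.2 and 70.2%) at 12, 24, 48 and 96 h. The median fusion region was 4934 bp against 782 bp for the set, and a wide region is more easily overlapped. Some of these members shared a fusion region, as at MNX1, so their fusion calls were not independent. MEIS1 had GLTSCR1 folds of 13.8 in DMSO and 25.5, 18.1, 11.2 and 11.5 later at its stronger region. The fusion was also called there in every list, with folds of 8.46 in DMSO and 9.13, 6.80 and 7.18 later. PAX6 had a GLTSCR1 peak of 4.73 in DMSO alone, and fusion folds of 12.4 in DMSO and 16.0, 9.56 and 19.3 later. LHX1 was called by GLTSCR1 from 24 h, and not at 12 h, at 1 of its 3 regions, with folds of 10.7 in DMSO and 7.69, 5.36 and 5.68 at 24, 48 and 96 h.

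HOX genes, which pattern the body axis, had 26 regions at 16 of 39 genes. The fusion was called over 26, 26 and 25 (100, 100 and 96.2%) at 12, 24 and 48 h. GLTSCR1 was called over 13, 16, 15 and 16 (50, 61.5, 57.7 and 61.5%) at 12, 24, 48 and 96 h. Their median fusion region was also wide, at 3152 bp. HOXC4 stood highest, with GLTSCR1 folds of 22.6 in DMSO and 22.5, 12.0, 12.0 and 16.9 later. The WNT, Hedgehog, BMP, FGF and Notch list had 45 regions at 31 of 58 genes, with a median fusion region of 1865 bp. The fusion was called over 39, 34 and 35 (86.7, 75.6 and 77.8%) and GLTSCR1 over 24, 23, 28 and 28 (53.3, 51.1, 62.2 and 62.2%). Its Hedgehog targets and effectors GLI1 (13.6 in DMSO), PTCH1 (11.9) and GLI2 (11.5), and HHIP above, were called by both antibodies in every list. FGF8, a secreted growth factor, had GLTSCR1 folds of 12.9 in DMSO and 15.7, 10.2, 18.1 and 25.2 later. BMP4 and FGF9 had a GLTSCR1 call in DMSO alone, with folds of 5.48 and 5.80.

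In the ribosomal, splicing, translation and ubiquitin lists no later time had more GLTSCR1 calls than 12 h. The same held in every other list except the HOX, the signalling and the DNA damage lists, so it was not particular to these functions. The whole set, with 64.2, 46.1, 44.6 and 51.8% at the 4 times, was also highest at 12 h. The 12 h shares were 80.8% for ribosomal, 88.2% for splicing, 90% for translation and 100% for ubiquitin genes. High 12 h shares were not particular to these lists. Polycomb and trithorax-type genes had 88.9%, bromodomain, Mediator and P-TEFb genes 85.7%, and heat shock genes 83.3%. Cytosolic ribosomal protein genes had 26 regions at 23 of 45 genes, with GLTSCR1 over 21, 14, 9 and 12 at 12, 24, 48 and 96 h and the fusion over 11, 12 and 9 at 12, 24 and 48 h. Splicing factor genes had 17 regions, with GLTSCR1 over 15, 12, 10 and 9 and the fusion over 8, 7 and 9. HNRNPA2B1, an RNA-binding protein, was called in every list, from a GLTSCR1 fold of 15.7 in DMSO. Translation factor genes had 10 regions (GLTSCR1 9, 9, 4 and 8; fusion 5, 2 and 7) and ubiquitin and proteasome genes 8 (GLTSCR1 8, 4, 2 and 4; fusion 4, 2 and 5).

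Chromatin regulators were split. Polycomb and trithorax-type genes had 18 regions at 15 of 28 genes, with GLTSCR1 over 16, 11, 12 and 14 at 12, 24, 48 and 96 h and the fusion over 12, 11 and 13 at 12, 24 and 48 h. ASXL1, a cofactor of the H2A deubiquitinase BAP1, had GLTSCR1 folds of 16.8 in DMSO and 19.9, 10.8, 7.14 and 12.0 later, and EZH2, the H3K27 methyltransferase, had 16.0, 8.89, 6.45, 6.07 and 7.87. The chromobox genes CBX2 and CBX8, readers in Polycomb complexes, kept both antibodies in every list. Bromodomain, Mediator and P-TEFb genes had 7 regions (GLTSCR1 6, 4, 4 and 4; fusion 4, 4 and 5). POLR2A, the largest subunit of RNA polymerase II, was called in every list, from a GLTSCR1 fold of 14.0 in DMSO.

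Genes of the remodelling complexes themselves had 7 regions at 7 of 28 genes, with GLTSCR1 over 5, 4, 4 and 4 and the fusion over 2, 1 and 3. BRD9, the target of WA-68, had a GLTSCR1 peak in DMSO alone, with a fold of 4.41, and fusion peaks of 2.81, 4.50, 3.25 and 4.80 in DMSO and at 12, 24 and 48 h. SS18 kept GLTSCR1 at every time, with folds of 6.99, 9.63, 3.78, 4.39 and 4.07, and had fusion in DMSO and at 12 h alone. BICRAL, the GLTSCR1 paralogue, had GLTSCR1 folds of 14.5 in DMSO and 6.73, 6.23, 7.08 and 6.79 later, and SMARCE1, a BAF subunit, had 13.6, 9.74, 6.01, 6.37 and 5.57 with fusion in DMSO alone.

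The remaining lists were small. Immediate early and AP-1 genes had 14 regions (GLTSCR1 10, 4, 8 and 8; fusion 6, 10 and 9), and JUND led them with GLTSCR1 folds of 39.2 in DMSO and 20.3, 10.3, 24.0 and 9.56 later, followed by FOS with 27.6 in DMSO. Cell cycle genes had 15 (GLTSCR1 11, 7, 7 and 7; fusion 8, 8 and 9), with CDKN2C, a CDK4 and CDK6 inhibitor, highest at 22.2. DNA damage and apoptosis genes had 10 (GLTSCR1 5, 6, 4 and 5; fusion 9, 7 and 8), with BCL2, the survival factor, at 12.5 and called in every list. Heat shock and unfolded protein response genes had 6 (GLTSCR1 5, 4, 2 and 4; fusion 4, 4 and 3), with HSPA1A at 10.1 and called in every list.

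**Figure D5:**
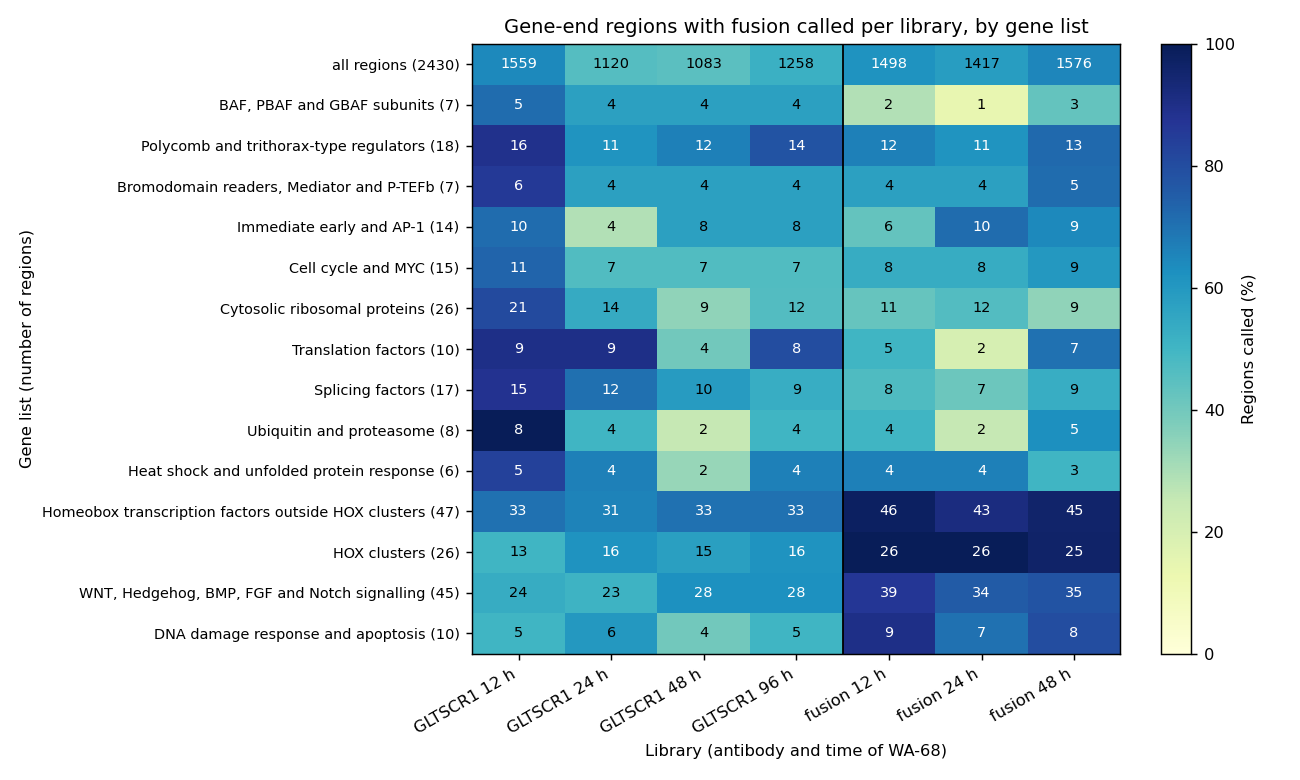
Number of gene-end regions with fusion called in each later list, for all 2430 regions and for 14 gene lists (number of regions in brackets); colour is the percent called. The homeobox and HOX rows are darkest in the fusion columns, 46 of 47 and 26 of 26 at 12 h, and the ribosomal row goes from 21 of 26 GLTSCR1 calls at 12 h to 9 at 48 h.

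At the edges of the choice, 93 members overlapped a fusion region by at most 100 bp, and 49 gene-end regions counted as without fusion had one within 100 bp. GLTSCR1 was called over 45.2%, 25.8%, 17.2% and 30.1% of those just inside at 12, 24, 48 and 96 h and over 46.9%, 20.4%, 14.3% and 20.4% of those just outside. The widest members were MEIS2 (4986 bp), H1-4/H2BC5, a histone gene pair (4953 bp), and HHIP. Just above the limit lay PDGFA (5013 bp), ZNF516 (5035 bp) and SIM1 (5063 bp), and these 6 were called in every later list of both antibodies.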

How the data were processed

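The 9 peak lists, 1 for each library, were deposited on GRCh38. The submitters' processing notes name BWA, Picard and SAMtools, the peak caller MACS2, and bcl2fastq, cutadapt, deepTools, FastQC and Trim Galore. The sources used here give no versions or settings. For each peak the authors deposited the summit's fold enrichment, a linear ratio, and −log10 p and −log10 q values, of which the lowest q value was 3.00 in every list. Read depth is unknown from peak lists.

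Rows with the same coordinates were joined into 1 region with its strongest summit. Regions were compared by overlap of at least 1 bp in Python 3.11.15 with NumPy 2.4.6, pandas 2.3.3 and SciPy 1.17.1, checked on simulated regions; figures used matplotlib 3.10.9. Neighbouring regions are not independent. Gene spans, starts and promoter letters came from RefSeq tables (GRCh38.p14). The members, the 14 gene lists (442 genes) and the tests were chosen with earlier results of these data known. Named genes were the highest by DMSO GLTSCR1 fold in each call pattern and list, the highest by DMSO fusion fold, and the widest members; other names were chosen after their values were seen. A few genes are not reported here. Alternatives were stricter overlap, summits within 250 bp, −log10 q of at least 5, lists of equal length, windows of 3 kb or promoters alone, and omission of 1 time.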

Additional observations from a re-analysis of the deposited data

How the results depend on the processing

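The shares moved with what counts as a call and as a member. Promoter windows alone gave 1454 members, 3 kb windows 3199 and −log10 q of at least 5 gave 1818, against 2430. For GLTSCR1 at 12, 24, 48 and 96 h, summits within 250 bp gave 40.5%, 28.6%, 27.3% and 31.6%, and promoter windows alone gave 71.6%, 51.7%, 49.4% and 56.1%. Overlap of 50% of the shorter region gave 61.2%, 42.5% and 49.2% at 12, 48 and 96 h. Lists of equal length gave 58.1%, 41.9% and 47.1% at 12, 24 and 96 h, and left 44.6% at 48 h, the shortest GLTSCR1 list. A −log10 q of at least 5 gave 49.2% at 96 h, and 3 kb windows 59.3% at 12 h. For the fusion at 12, 24 and 48 h, summits gave 22.8%, 21.0% and 24.2%, 50% overlap 56.0%, 52.3% and 58.7%, promoter windows 56.8%, 52.9% and 60.3%, and 3 kb windows 66.3%, 64.0% and 68.9%. Lists of equal length gave 54.9% at 12 h and 61.8% at 48 h, and left 58.3% at 24 h, the shortest fusion list. GLTSCR1 at every later time was 9.59% by summits, 24.9% with equal lists, 33.2% at promoter windows, and 33.1%, 34.7% and 31.0% without the 24, 48 or 96 h library. Fusion at every later time was 3.33% by summits, 37.5% at 50% overlap, 40.8% with equal lists, 50.9% with 3 kb windows, 38.8% at promoter windows, and 50.2%, 51.8% and 49.1% without the 12, 24 or 48 h library.

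Against gene-end regions without fusion, the GLTSCR1 difference with width matched was -8.26, 0.756, 15.6 and 10.4 points at 12, 24, 48 and 96 h, and by summits -9.84, -0.305, 8.40 and 4.51 points. At 24 h the sign changed by summits, but both values lay within counting error (-1.69 to 3.20 with width matched and -2.70 to 2.09 by summits). The cause was not tested. Against distal regions with fusion, summits gave -13.2, -17.5 and -12.7 points for GLTSCR1 at 24, 48 and 96 h and -4.28, -7.51 and -4.38 points for the fusion at 12, 24 and 48 h. With 50% overlap, added later, the widest quintile of fusion width had GLTSCR1 calls in 50.6% at 12 h and 59.1% at 48 h. No paired analysis was possible because each antibody and time had 1 library. Intervals say nothing of variation between cultures, and a missing peak is a value below a threshold at an unknown depth.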
